A study of Homo sapiens with 8 samples.

Results

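The 9 genes described here are DPPA2, DPPA3, DPPA4, DPPA5, UTF1, KLF4, KLF5, TFCP2L1 and TBX3, which mark pluripotent cells or the naive form of pluripotency. They were chosen by symbol, as every array probe that the platform annotation gives to 1 of these names. The 9 symbols had 12 of the 48802 probes on the array, and 8 of the 9 genes entered the 19124 tests made across the whole array. KLF5 was the member left without a test, because its only probe was not detected on any array.

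RNA was profiled on 8 Illumina arrays of human embryonic stem cells, 2 arrays for each of 4 lines, to compare cells that overexpress ZFX, which encodes a zinc finger transcription factor of the X chromosome, with cells that do not. All lines derive from H9 (WA-09), an established embryonic stem cell line, and all were kept under the usual culture conditions for such cells. The control lines were H9 itself and clone 3, a wild-type line derived from H9 as a clone. The ZFX lines were clones 2 and 5, which received a bacterial artificial chromosome with the ZFX locus and were picked by drug resistance. Each of these 3 clonal lines is 1 clone, and the labels say neither what else the artificial chromosome carries nor whether clone 3 was drug-selected. Whether a line's 2 arrays used separate cultures is not stated, so p-values between lines measure only the spread between arrays, which may be technical.

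Human embryonic stem cells grown in the usual media resemble the epiblast after implantation and are called primed, whereas naive cells resemble the epiblast before implantation. DPPA2 and DPPA4 are partner proteins with a SAP domain that bind chromatin and keep certain developmental promoters open to activation. DPPA3, also called Stella or PGC7, is a maternal and germ cell factor that protects DNA methylation in the early mouse embryo, and in human cells it is used as a marker of the naive state. DPPA5 is a small RNA-binding protein with a KH domain, and UTF1 is a chromatin-bound factor of undifferentiated embryonic stem cells. KLF4 and KLF5 are Krueppel-like zinc finger factors, TFCP2L1 is a grainyhead-like factor and TBX3 is a T-box factor. In the mouse these 4 sustain the naive state downstream of LIF and other signals.

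The promoters of the 4 DPPA genes and of UTF1 are shown because the results below turn on these 5 genes. Each line runs from 250 bases before to 50 bases after the transcription start in RefSeq (GRCh38.p14), 5′ to 3′ on the gene's own strand, with each CpG dinucleotide in capitals. The DPPA2 promoter lies at chr3:109316468-109316767 on the minus strand and that of its neighbour DPPA4 at chr3:109337497-109337796, also on the minus strand. The DPPA3 promoter lies at chr12:7711183-7711482 on the plus strand, that of DPPA5 at chr6:73354227-73354526 on the minus strand and that of UTF1 at chr10:133229967-133230266 on the plus strand.
DPPA2: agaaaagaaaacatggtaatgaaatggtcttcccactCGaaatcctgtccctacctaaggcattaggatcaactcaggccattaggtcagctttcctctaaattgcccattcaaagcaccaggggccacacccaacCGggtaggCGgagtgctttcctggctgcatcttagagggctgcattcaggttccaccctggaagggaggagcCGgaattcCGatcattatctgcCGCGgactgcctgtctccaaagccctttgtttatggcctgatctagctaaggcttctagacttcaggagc
DPPA4: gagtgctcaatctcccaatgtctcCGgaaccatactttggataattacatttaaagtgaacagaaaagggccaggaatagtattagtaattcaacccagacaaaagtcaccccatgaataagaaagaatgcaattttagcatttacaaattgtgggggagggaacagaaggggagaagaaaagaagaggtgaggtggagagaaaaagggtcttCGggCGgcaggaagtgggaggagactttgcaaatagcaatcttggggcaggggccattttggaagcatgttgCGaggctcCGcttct
DPPA3: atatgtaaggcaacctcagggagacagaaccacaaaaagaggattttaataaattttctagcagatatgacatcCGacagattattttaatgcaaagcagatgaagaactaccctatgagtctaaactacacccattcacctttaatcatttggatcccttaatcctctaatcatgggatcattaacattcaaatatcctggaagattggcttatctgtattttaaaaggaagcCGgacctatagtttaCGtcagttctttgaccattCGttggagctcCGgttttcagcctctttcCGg
DPPA5: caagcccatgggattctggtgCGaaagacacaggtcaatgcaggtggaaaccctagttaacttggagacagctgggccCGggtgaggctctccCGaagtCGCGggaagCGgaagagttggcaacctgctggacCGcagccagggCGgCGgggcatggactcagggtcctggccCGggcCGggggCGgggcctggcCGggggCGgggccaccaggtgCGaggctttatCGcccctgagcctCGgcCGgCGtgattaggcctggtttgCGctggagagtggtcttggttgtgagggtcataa
UTF1: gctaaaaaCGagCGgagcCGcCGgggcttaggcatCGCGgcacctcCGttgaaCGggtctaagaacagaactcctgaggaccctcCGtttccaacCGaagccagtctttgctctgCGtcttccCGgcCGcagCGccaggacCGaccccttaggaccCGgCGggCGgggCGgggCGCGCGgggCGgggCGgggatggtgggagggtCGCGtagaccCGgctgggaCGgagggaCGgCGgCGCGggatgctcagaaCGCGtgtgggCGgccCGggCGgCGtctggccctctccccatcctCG

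These windows held 7 CpG dinucleotides for DPPA2, 5 for DPPA4, 6 for DPPA3, 20 for DPPA5 and 39 for UTF1. The median over all 35116 promoters of the same length was 14, with quartiles of 4 and 28, so UTF1 was above the upper quartile and DPPA2, DPPA3 and DPPA4 lay between the lower quartile and the median. The KLF4 and TFCP2L1 promoters held 33 and 43, and the 2 promoters of KLF5 held 4 and 37. The letters AGGCCT, the core of the motif described for ZFX and its own reverse complement, were found in 2 of the 9 member promoters, which belong to 8 genes, against 10.9% of all promoters. The matches were in DPPA5, starting at base 5 after the start site, and in 1 KLF5 promoter, starting 110 bases before it. TBX3 was not searched. No match says only that these letters are not in the window, and the array measured no binding.

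Each array detected 19177 to 20588 probes (detection p under 0.05), and its dimmest detected probe had an intensity of 64.1 to 73.3. The number of arrays limits the precision. ZFX itself had intensities of 99.7 to 120 on the 4 control arrays and 199 to 220 on the 4 ZFX arrays, a log2 fold of 1.34 ± 0.16 (SE). All 9 embryonic stem cell markers with a probe were detected on all 8 arrays, with a summed level of 21882 to 24497. Clone 3 stood apart from the other lines: its 8 primitive streak markers summed to 2659 and 2803, against 320 and 321 in H9 and 204 to 259 on the ZFX arrays. Its 3 tested endoderm markers, of 6, summed to 916 and 920, against 96.8 to 129 on the other six arrays. The members' results are therefore also given with each control line apart. These are whole cultures, so fewer cells with a gene on and less of its RNA per cell cannot be told apart.

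Over the 4 control and 4 ZFX arrays, 3 of the 8 tested members rose in the ZFX lines, namely DPPA2, DPPA3 and UTF1, and none fell. Of all 19124 tests, 1.12% were called higher and 0.56% lower at an adjusted p under 0.05. By limma without adjustment, 4 members had a p under 0.05 in the higher direction and 0 in the lower. In this comparison 1974 of all 19124 tests had such a p, in either direction. The members' median log2 fold was 0.51, beside -0.0016 over all tests. In 5 of the 8, namely DPPA2, DPPA3, DPPA5, UTF1 and TFCP2L1, every ZFX array lay above every control array on the normalized log2 scale, which held for 5.48% of all tests. No member had every ZFX array below every control array, as 4.47% of all tests had. DPPA2 was higher in both ZFX lines against both control lines, whereas the size of the UTF1 rise depended on clone 3.

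**Figure D1:**
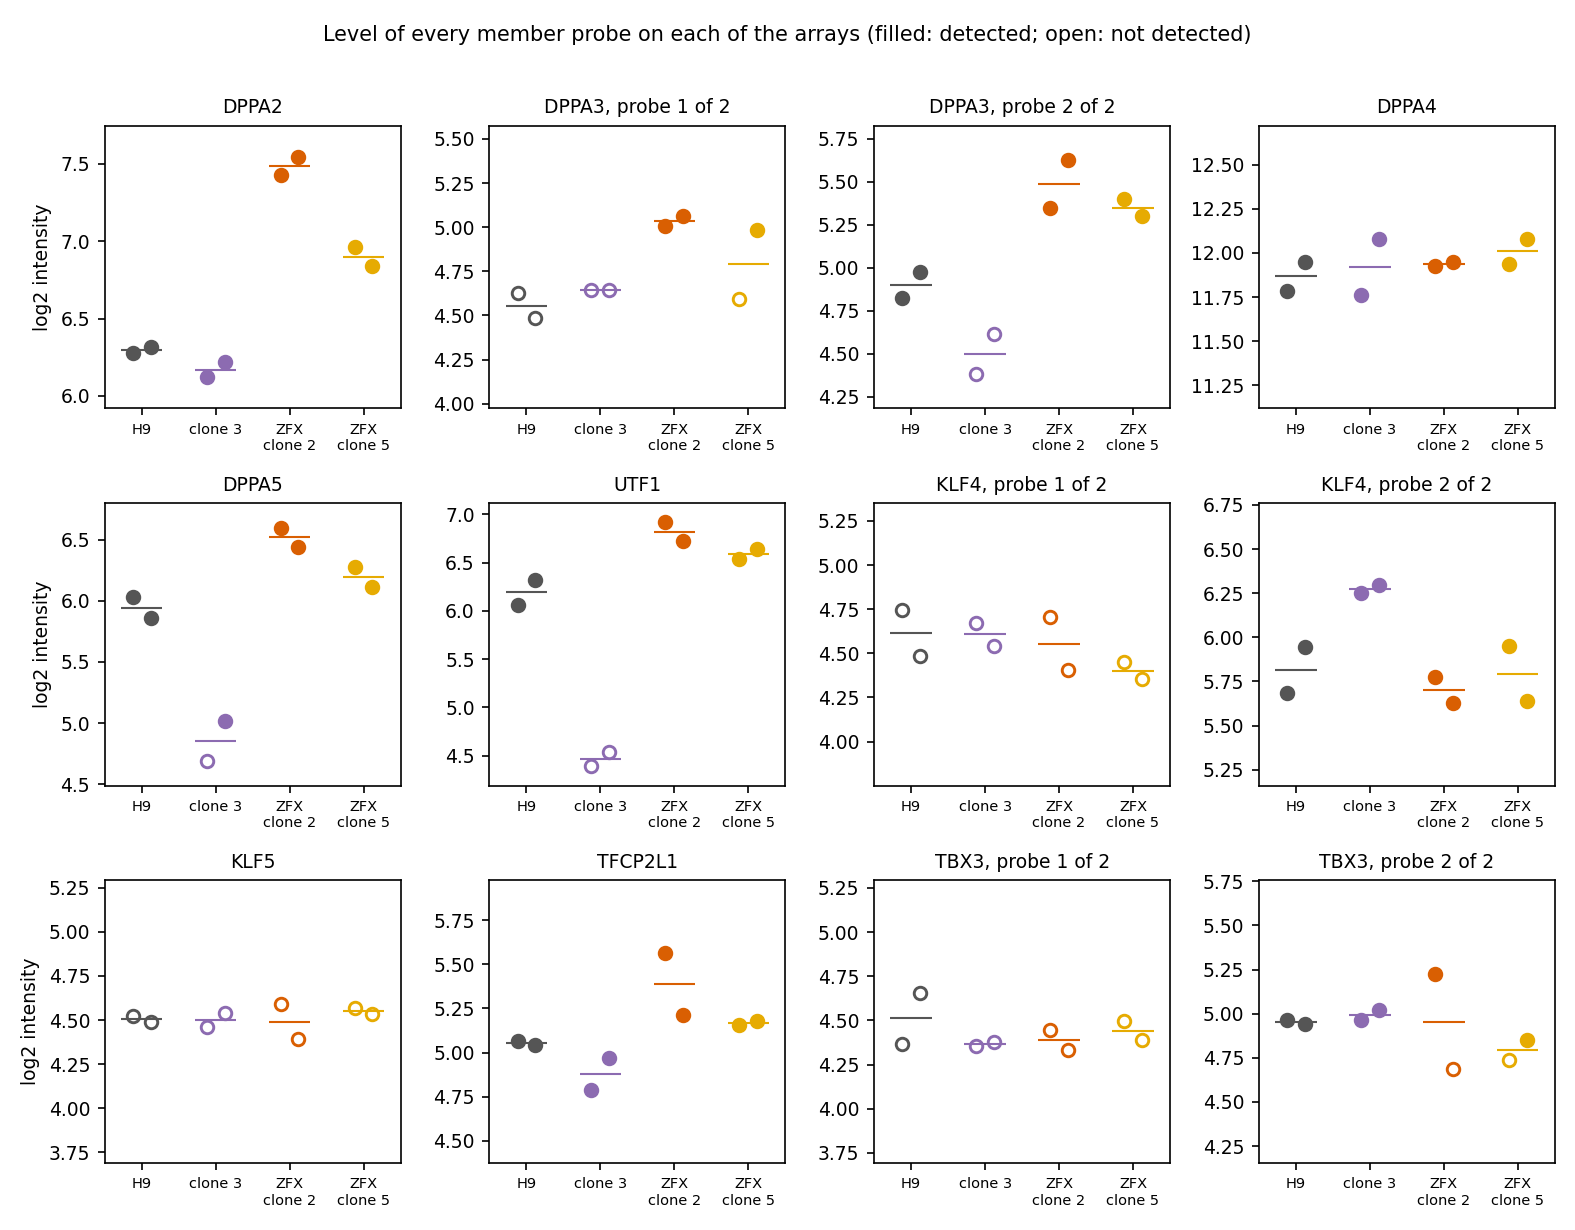
Normalized log2 intensity (vertical axis, scaled per panel) of all 12 member probes on the 8 arrays, by line, with filled points for detected and open points for undetected values and a bar at each line's mean. DPPA2 is highest in clone 2 and next in clone 5, DPPA4 is level across lines, and UTF1 and the second DPPA3 probe are undetected in clone 3; for DPPA3, KLF4 and TBX3 the second probe is the tested one.

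DPPA2 rose in the ZFX lines and kept its call in 21 of 23 alternative analyses, more than any other member. Its deposited intensity was 133 and 115 on the H9 arrays, 108 and 112 in clone 3, 205 and 199 in clone 2, and 188 and 141 in clone 5. It was detected on all 8 arrays, and the lowest ZFX value was above the highest control value. On the normalized log2 scale the line means were 6.30 ± 0.03 in H9, 6.17 ± 0.07 in clone 3, 7.49 ± 0.08 in clone 2 and 6.90 ± 0.09 in clone 5 (SD, n = 2 arrays each). The order was clone 2, clone 5, H9 and clone 3, and only the last pair in that order did not differ beyond the spread of the arrays (log2 difference -0.13, adjusted p = 0.563). ZFX over control lines, the log2 fold was 0.96 ± 0.17 (SE; 95% interval 0.61 to 1.31; adjusted p = 0.00475), a 1.95-fold rise. Against H9 alone the log2 fold was 1.19 in clone 2 (adjusted p = 1.13e-07) and 0.61 in clone 5 (adjusted p = 0.00288). The call was lost with clone 5 as the only ZFX line (log2 fold 0.67, adjusted p = 0.218) and with 1 averaged value a line (adjusted p = 0.288).

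DPPA4, which lies next to DPPA2 on chromosome 3 and encodes its partner, did not pass the test. Its intensity was 4129 and 3647 in H9, 3622 and 4465 in clone 3, 3843 and 3496 in clone 2, and 4508 and 3861 in clone 5. Control arrays, at 3622 to 4465, and ZFX arrays, at 3496 to 4508, overlapped, and the probe was far above the dimmest detected one on every array. Line means ran from 11.87 ± 0.12 in H9 to 12.01 ± 0.10 in clone 5 on the log2 scale (SD, n = 2 arrays each), and no neighbours in the order of the lines differed beyond the spread of the arrays. The log2 fold of ZFX over control lines was 0.08 ± 0.10 (SE; adjusted p = 0.945), with a 95% interval of -0.14 to 0.30 that lies below the interval of DPPA2. The difference between the 2 genes was not itself tested.

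DPPA3 rose in the ZFX lines by its tested probe, at levels close to the detection limit. That probe read 73.4 and 70.8 in H9, 53.3 and 61.1 in clone 3, 79.8 and 82.5 in clone 2, and 89.4 and 75.0 in clone 5. It was not detected on either array of clone 3 and was detected on the other six. ZFX over control lines, the log2 fold was 0.72 ± 0.18 (SE; 95% interval 0.35 to 1.09; adjusted p = 0.0463). Over clone 3 it was at least 1.66-fold higher in clone 2 (adjusted p = 0.000122) and at least 1.5-fold higher in clone 5 (adjusted p = 0.00074), where these bounds use the dimmest detected probe of each clone 3 array. Over H9 the log2 fold was 0.59 in clone 2 (adjusted p = 0.0221) and 0.45 in clone 5, which did not pass (adjusted p = 0.156).

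The second DPPA3 probe was detected on 3 of the 8 arrays, all of them ZFX arrays. It read 67.5 and 58.6 in H9, 61.6 and 61.8 in clone 3, 71.7 and 69.2 in clone 2, and 64.1 and 68.0 in clone 5. ZFX and control values of this probe overlapped, and its log2 fold of 0.31 did not pass when every probe was tested (adjusted p = 0.584). The call of the other probe was lost without any 1 array except H9 replicate 2, with an adjusted p of 0.0737 to 0.133 in the 7 fits that lost it. It was also lost with H9 as the only control line (log2 fold 0.52, adjusted p = 0.0526), on the authors' processed values (0.21, adjusted p = 0.0709) and with no background correction (0.38, adjusted p = 0.0795). With 1 averaged value a line the call was lost too (adjusted p = 0.317). RefSeq lists 12 pseudogenes named after DPPA3, 4 after DPPA2, 4 after DPPA5 and 3 after DPPA4, none with a probe of its own on the array. Probe sequences were not used here, so binding of these transcripts to the members' probes was not tested.

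DPPA5 did not pass the test over both control lines, although every ZFX array lay above every control array after normalization. Its intensity was 119 and 94.4 in H9, 62.7 and 70.0 in clone 3, 134 and 114 in clone 2, and 132 and 100.3 in clone 5. One clone 3 array had no detected signal, the other was near the limit, and H9 lay much closer to the ZFX lines than clone 3 did. Line means were 5.94 ± 0.13 in H9, 4.85 ± 0.23 in clone 3, 6.52 ± 0.11 in clone 2 and 6.19 ± 0.12 in clone 5 (log2, SD, n = 2 arrays each). The log2 fold of ZFX over control lines was 0.96 ± 0.25 (SE; 95% interval 0.43 to 1.49; adjusted p = 0.0655). Over H9, DPPA5 was higher in clone 2 by 0.57 (adjusted p = 0.0131), and the 0.25 of clone 5 did not pass (adjusted p = 0.462). The gap to clone 3 was larger, with log2 folds of 1.66 in clone 2 and 1.34 in clone 5 (adjusted p = 3.54e-09 and 2.22e-07). When arrays were scaled to a common median, the fold of ZFX over control lines was 0.93 and passed (adjusted p = 0.00455).

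UTF1 rose in the ZFX lines and was not detected in clone 3. Its intensity was 121 and 115 in H9, 53.6 and 58.8 in clone 3, 157 and 131 in clone 2, and 150 and 128 in clone 5. Neither clone 3 array detected it, all 6 other arrays did, and the H9 arrays lay just below the lowest ZFX array. On the normalized log2 scale H9 was at 6.19 ± 0.18, clone 3 at 4.46 ± 0.10, clone 2 at 6.82 ± 0.14 and clone 5 at 6.59 ± 0.08 (SD, n = 2 arrays each). ZFX over control lines, the log2 fold was 1.38 ± 0.33 (SE; 95% interval 0.68 to 2.08; adjusted p = 0.0433). With H9 as the only control line it was 0.51 (adjusted p = 0.035), where DPPA2 was at 0.90 (adjusted p = 0.00278). Folds against clone 3 are given as bounds, since the gene was not detected there.

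By single lines, UTF1 was at least 4.16-fold higher in clone 2 and at least 3.55-fold higher in clone 5 than in clone 3, and H9 was at least 2.70-fold higher than clone 3 (adjusted p = 7.47e-13, 7.1e-12 and 9.26e-10). Against H9, clone 2 was higher by a log2 fold of 0.63 (adjusted p = 0.00464), while 0.40 in clone 5 did not pass (adjusted p = 0.138). The 2 ZFX clones did not differ beyond the spread of their arrays (log2 difference -0.23, adjusted p = 0.509). The call over both control lines was lost when any single array other than those of H9 was left out, with an adjusted p of 0.0872 to 0.123. It was also lost with 1 averaged value a line, where the SE was 0.45 (adjusted p = 0.56).

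KLF4, a factor of both pluripotent and differentiated epithelial cells, was detected on all 8 arrays by its tested probe and differed mainly between clone 3 and the other lines. The probe read 102 and 97.9 in H9, 115 and 116 in clone 3, 93.4 and 82.5 in clone 2, and 113 and 84.1 in clone 5. Clone 3 was highest on the normalized scale, at 6.27 ± 0.03 on the log2 scale, and the other three lines lay between 5.70 and 5.81 with overlapping arrays. The log2 fold of ZFX over control lines was -0.30 ± 0.18 (SE; adjusted p = 0.682). KLF4 was lower than in clone 3 in clone 2 by a log2 fold of -0.57 (adjusted p = 0.0115) and in clone 5 by -0.48 (adjusted p = 0.0353). These calls were kept in 14 and 11 of 17 alternatives, and each was lost without either clone 3 array and without replicate 2 of its own ZFX clone (adjusted p up to 0.109 and 0.341). Against H9 these were -0.11 and -0.02, and neither passed (adjusted p = 0.725 and 0.972). The second KLF4 probe was not detected on any array, at intensities of 51.1 to 71.1.

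TFCP2L1 was detected on all 8 arrays but stayed close to the detection limit. It read 80.4 and 72.2 in H9, 65.0 and 68.9 in clone 3, 86.0 and 72.4 in clone 2, and 81.0 and 72.1 in clone 5. After normalization all ZFX arrays lay above all control arrays, yet the log2 fold of 0.31 ± 0.17 did not pass (SE; 95% interval -0.04 to 0.66; adjusted p = 0.593). Among the line pairs it passed once, in clone 2 over clone 3, at 0.51 (adjusted p = 0.047). That call was kept in 7 of 17 alternatives.

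TBX3 did not pass in any comparison, and KLF5 was not detected. The tested TBX3 probe read 77.6 and 70.0 in H9, 68.8 and 70.0 in clone 3, 76.8 and 61.5 in clone 2, and 68.5 and 65.1 in clone 5, and it was detected on 6 of the 8 arrays. Control and ZFX arrays overlapped, and the log2 fold was -0.10 ± 0.17 (SE; 95% interval -0.47 to 0.27; adjusted p = 0.965). The second TBX3 probe was detected on no array, at 50.3 to 63.6. The KLF5 probe read 53.0 to 64.0 over the 8 arrays with detection p-values of 0.124 to 0.465, so it gave no detected signal in any line. KLF4 and TBX3 each had a detected probe and another detected on no array. The single KLF5 probe therefore does not settle how much KLF5 RNA the lines hold.

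The line pairs show how far each result rests on 1 line. In clone 2 over H9, 4 of 8 members were higher (DPPA2, DPPA3, DPPA5 and UTF1) and 0 lower, where 8.65% of all tests were higher and 6.54% lower. In clone 5 over H9 only DPPA2 was higher, with 3.14% of all tests called higher and 2.41% lower, and 3 members had an unadjusted limma p under 0.05 in the higher direction and 0 in the lower. The share of all tests with such an unadjusted p was not counted for pairs of lines. The 2 comparisons share the H9 arrays, so they are not independent. Over clone 3, clone 2 had 5 members higher, the same 4 and TFCP2L1, and KLF4 lower, beside 8.88% and 7.36% of all tests. Clone 5 over clone 3 had those 4 higher and KLF4 lower, beside 8.89% and 8.22%. Both clone 2 arrays lay above all arrays of the other lines for 4 of the 8 members, DPPA2, DPPA5, UTF1 and TFCP2L1, as they did for 8.09% of all tests. The ZFX clones themselves differed in DPPA2, which was lower in clone 5 than in clone 2 by a log2 fold of -0.58 ± 0.13 (SE; adjusted p = 0.00756), with 2.2% of all tests lower and 1.07% higher. ZFX itself was at 7.60 in clone 2 and 7.30 in clone 5, a difference that did not pass (adjusted p = 0.286).

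**Figure D2:**
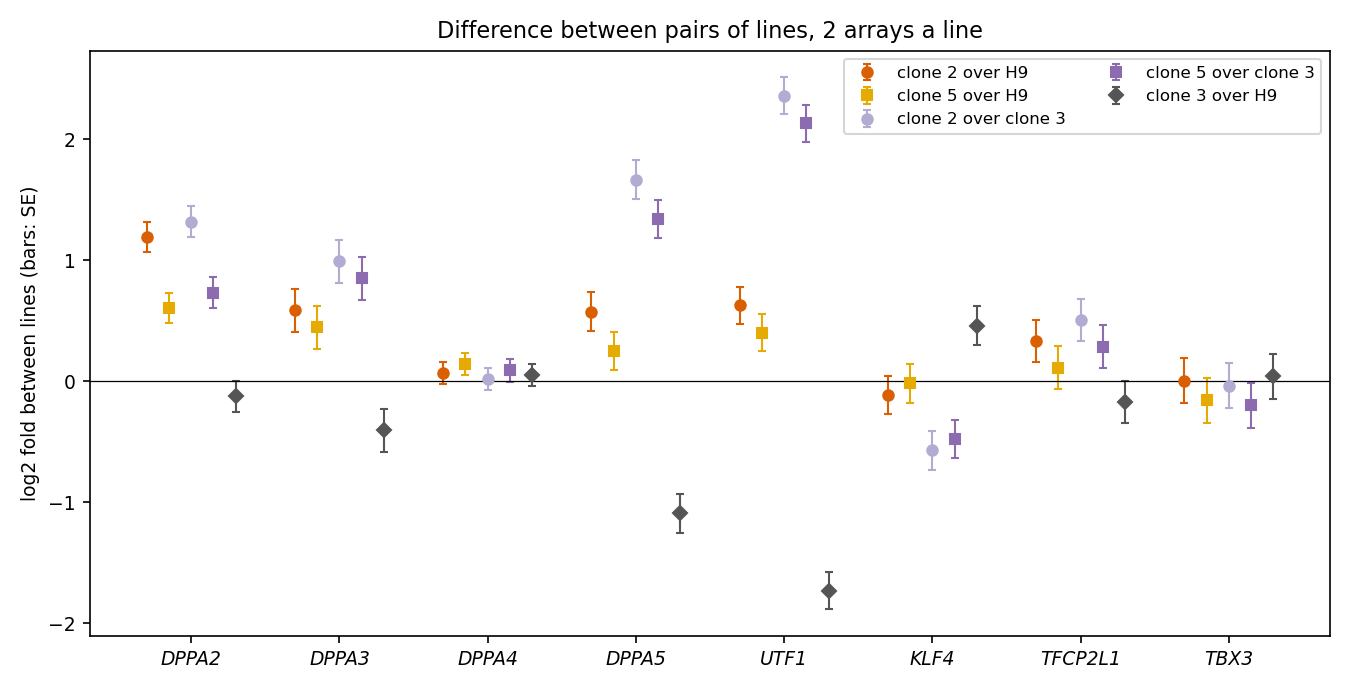
Log2 fold between pairs of lines (vertical axis) for the 8 tested members, with standard errors as bars. DPPA2 is above 0 wherever a ZFX line is set over a control line, whereas DPPA5 in clone 2 is at 1.66 over clone 3 and at 0.57 over H9, and in clone 3 over H9 at -1.09; folds drawn for UTF1 and DPPA3 against clone 3 are fitted values for an undetected level.

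Clone 3 differed from H9 although neither carries the ZFX construct. UTF1 and DPPA5 were lower in clone 3, DPPA5 by a log2 fold of -1.09 ± 0.16 (SE; adjusted p = 8.33e-06), and KLF4 was higher by 0.46 ± 0.16 (SE; adjusted p = 0.0398). The KLF4 call was kept in 11 of 17 alternatives and lost without H9 replicate 1 or either clone 3 array (adjusted p up to 0.268). In all, 1 of 8 members was higher and 2 were lower, in a pair of lines where 9.85% of all tests were higher and 9.91% lower. Both clone 3 arrays lay below all arrays of the other lines for 5 members, DPPA2, DPPA3, DPPA5, UTF1 and TFCP2L1, as they did for 12.5% of all tests. They lay above all others for KLF4, as for 12.2% of tests. The same arrays carried the high primitive streak and endoderm sums given above, and their mesenchymal markers, 5 tested of 7, summed to 3430 and 3589 against 1046 to 2074 on the other arrays. Of these 5 mesenchymal markers 1 was higher in clone 3 than in H9, TAGLN by a log2 fold of 0.92, and 1 was lower, COL1A1, at -1.41. GATA6 among the endoderm markers and LUM among the mesenchymal ones were detected on no array. The part of these markers in the low UTF1 and DPPA5 of clone 3 was not tested. DPPA3 did not pass in clone 3 over H9 (fitted log2 fold -0.40 by its tested probe, adjusted p = 0.113). Its other probe was at 0.09 when every probe was tested (adjusted p = 0.803). Trophoblast and amnion markers, 5 tested of 8, summed to 146 to 165 on all 8 arrays, with CGA and GATA2 detected on none.

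How the intensity was corrected changed the size of these folds but not the direction of any member's ZFX over control fold. DPPA2 went from 0.96 to 0.70 with no background correction and 0.50 on the authors' processed values. UTF1 went from 1.38 to 0.84 and 0.52, and DPPA5 from 0.96 to 0.55 and 0.34. DPPA4, the bright probe, stayed at 0.08 and 0.07. These members other than DPPA4 have intensities near the background, so the sizes of their folds depend on the correction.

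**Figure D3:**
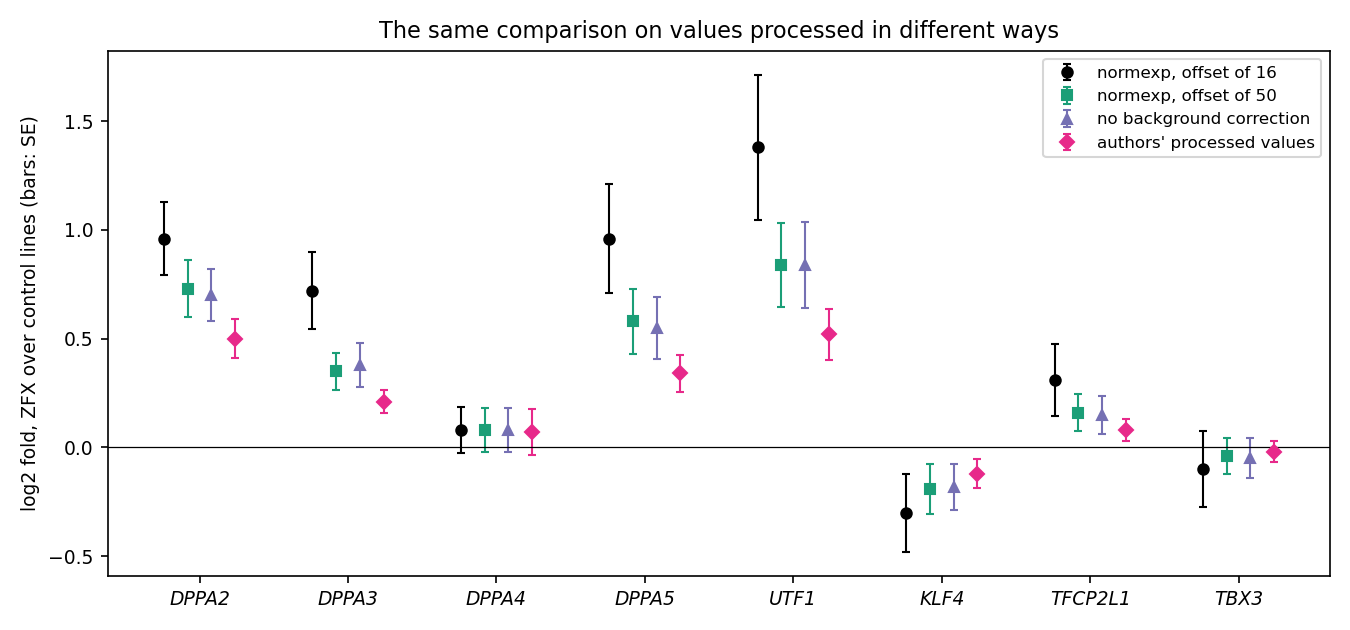
Log2 fold of ZFX over control lines (vertical axis, bars are standard errors) for the 8 tested members on values corrected in 4 ways. The dim members shrink toward 0 from the first to the last way, UTF1 from 1.38 to 0.52 and DPPA2 from 0.96 to 0.50, while the bright DPPA4 stays at 0.07 to 0.08.

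Against both control lines together, none of the other naive-state genes tested rose in the ZFX lines. Of 22 further naive-state genes 16 were tested, 0 were higher and 1 was lower in ZFX over control lines, beside 1.12% and 0.56% of all tests. By limma without adjustment, 1 was higher and 4 were lower at a p under 0.05. Their median log2 fold was 0.05, with 8 above and 8 below 0. The gene that fell was NR5A2, an orphan nuclear receptor that activates POU5F1 in mouse cells. Its line means on the log2 scale were 7.39 ± 0.16 in H9, 7.94 ± 0.04 in clone 3, 6.96 ± 0.10 in clone 2 and 6.56 ± 0.15 in clone 5 (SD, n = 2 arrays each). Both ZFX lines were below both control lines, with a log2 fold of -0.90 ± 0.18 (SE; adjusted p = 0.0102). Set over H9 alone, 5 of the 16 genes were higher and 3 lower in clone 2, beside 8.65% and 6.54% of all tests, and 2 were higher and 3 lower in clone 5, beside 3.14% and 2.41%. TFAP2C and CBFA2T2, named after their values were seen, were higher than in H9 in both ZFX clones. Both also lay above H9 in control clone 3, where TFAP2C was highest. CBFA2T2 was at 5.53 in H9, 6.10 in clone 3, 6.20 in clone 2 and 6.09 in clone 5 on the log2 scale. Set over clone 3, 2 of the 16 genes were higher and 5 lower in clone 2, beside 8.88% and 7.36% of all tests. In clone 5 over clone 3, 0 were higher and 5 lower, beside 8.89% and 8.22% (unadjusted limma p under 0.05 for 1 higher and 6 lower). Clone 3 itself had 6 of the 16 higher and 1 lower than H9, beside 9.85% and 9.91%. FGF4, 1 of the 16, was detected on both clone 3 arrays and on no other. It thus passed the detection filter only through clone 3.

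Of 17 genes of the primed state 15 were tested, with a median of 0.01. Of these 0 were higher and 2 lower, beside 1.12% and 0.56% of all tests. By limma without adjustment 3 were higher and 5 lower at a p under 0.05. Over H9, 1 was higher and 5 lower in clone 2, beside 8.65% and 6.54%. In clone 5 over H9, 0 were higher and 3 lower, beside 3.14% and 2.41% (unadjusted limma p under 0.05 for 0 and 6). Over clone 3, 5 were higher and 4 lower in clone 2, beside 8.88% and 7.36%. In clone 5 over clone 3, 6 were higher and 4 lower, beside 8.89% and 8.22%. Medians were -0.26 and -0.14 over H9 and 0.07 and 0.15 over clone 3, clone 2 first. OTX2, a homeobox factor of the primed epiblast and the early forebrain, was at 8.56 in H9, 9.15 in clone 3, 7.09 in clone 2 and 8.14 in clone 5 on the log2 scale. It fell by 1.23 on that scale over both controls (SE 0.23, adjusted p = 0.0085). CYTL1, a secreted cytokine-like protein, was at 6.10, 6.13, 5.55 and 5.37 in the same order of lines and had a log2 fold of -0.65 ± 0.16 (SE; adjusted p = 0.0421).

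Of the other Krueppel-like factors 10 of 15 were tested and none was called in either direction, with a median of 0.06 and, by limma without adjustment, 1 higher and 0 lower at a p under 0.05. The largest folds were 0.39 for KLF9 (adjusted p = 0.342) and 0.17 for KLF2, a naive-state factor in the mouse (adjusted p = 0.958). Of 13 germ cell genes 7 were tested and 0 called, with 0 higher and 1 lower at an unadjusted limma p under 0.05. PRDM1, a repressor needed by primordial germ cells, was detected only in clone 3, at 5.86 ± 0.17 on the log2 scale (SD, n = 2 arrays). TFAP2C, a factor of primordial germ cells and of the naive state, was at 6.51 in H9, 7.88 in clone 3, 7.59 in clone 2 and 7.34 in clone 5 on the log2 scale. Its log2 fold over both control lines was 0.26 (adjusted p = 0.907), and over H9 alone it was 1.07 in clone 2 and 0.82 in clone 5 (adjusted p = 5.63e-07 and 7.18e-05). Clone 3 exceeded H9 by 1.37 (adjusted p = 2.4e-09), and clone 5 was below clone 3 at -0.55 (adjusted p = 0.00227). Of 15 genes of early cleavage, when the embryonic genome turns on, 3 were tested and 0 called, and none had an unadjusted limma p under 0.05. The largest fold among these was 0.32 for CCNA1 (adjusted p = 0.532), and TRIM49 was at -0.05.

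**Figure D4:**
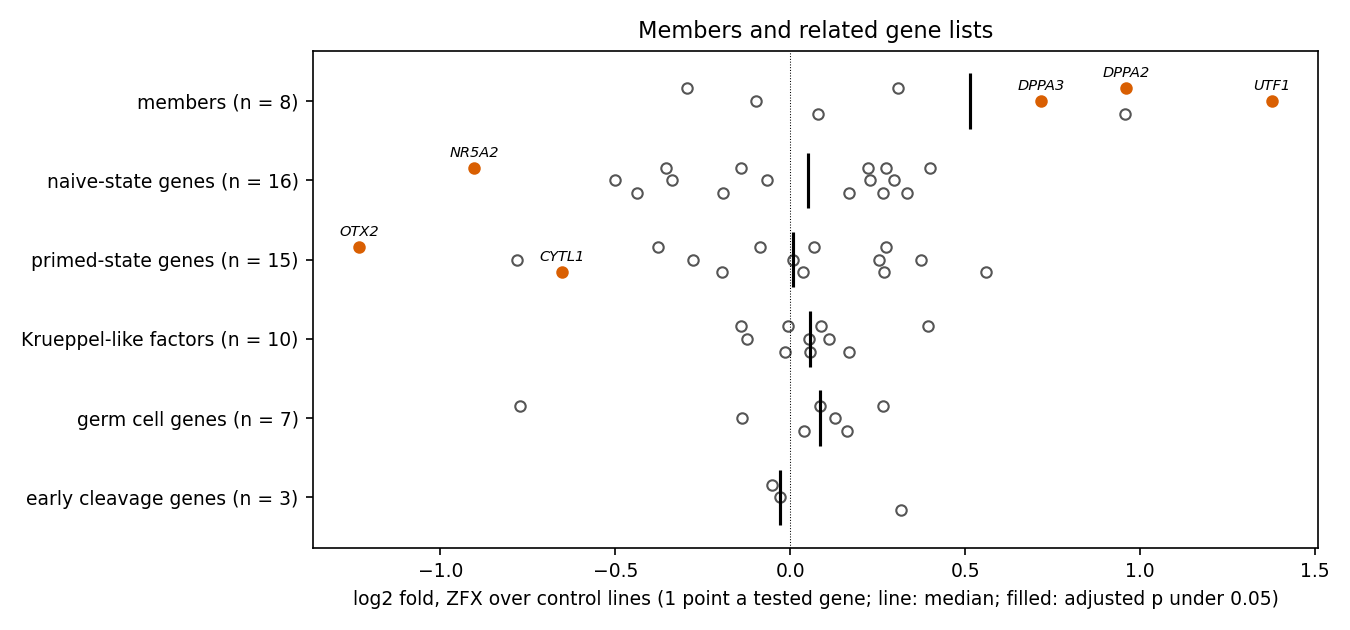
Log2 fold of ZFX over control lines (horizontal axis) for each tested gene of the member list and 5 related lists, with a bar at each list's median and filled points for genes past the test. DPPA2, DPPA3 and UTF1 stand at 0.72 to 1.38, whereas the naive-state list is centred at 0.05 and its 1 called gene, NR5A2, lies at -0.90.

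Markers of other cell types were set beside the ZFX comparison too. In ZFX over control lines EOMES was the 1 of 8 primitive streak markers called, lower, and TAGLN, a smooth muscle actin-binding protein, the 1 of 5 mesenchymal markers (log2 fold -1.14, adjusted p = 0.0171). Of these 5 mesenchymal markers, 4 had a log2 fold above 0 and 1 below, with a median of 0.04. The highest was COL1A1 at 0.81, which was not called. By limma without adjustment, 1 of the 5 was higher and 1 lower at a p under 0.05. HES5, a Notch effector of neural progenitors, was higher by 0.63 (adjusted p = 0.0267), 1 of the 2 neuroectoderm markers tested of 6, and SOX1, POU3F2 and SIX3 were detected on no array. The other tested one, PAX6, had a log2 fold of -0.07 and was not called. PAX6 was at 4.87 in H9, 4.43 in clone 3, 4.64 in clone 2 and 4.51 in clone 5 on the log2 scale. It was detected on 2, 0, 1 and 0 arrays of these lines. At an unadjusted limma p under 0.05, 6 of the 8 primitive streak markers were lower and 0 higher, with a median log2 fold of -1.54. Of all 19124 tests, 1974 had such a p in either direction. TBXT and GSC, among these 8, were detected on both arrays of clone 3 and on no other. They therefore passed the detection filter only through the line where they were high. EOMES, MIXL1 and FGF8, by their tested probes, were detected on both arrays of H9 and of clone 3 and on no ZFX array. These passed the filter only through the control lines, so such genes could hardly come out higher in the ZFX lines. The lower folds of these markers are therefore given only as a description. The median of the 8 was -0.10 in clone 2 and -0.28 in clone 5 over H9, and -2.76 and -3.07 over clone 3. By adjusted p, 6 of the 8 streak markers were lower than in clone 3 in both ZFX clones. The shares of all tests called lower there were 7.36% for clone 2 and 8.22% for clone 5. Against H9, 2 were lower in clone 2 and 3 in clone 5, beside 6.54% and 2.41% of all tests. EOMES was detected on no ZFX array and was lower than in H9 in both clones (adjusted p = 4.58e-09 and 7.34e-09). TAGLN was lower than in H9 in clone 5 (log2 fold -1.15, adjusted p = 4.44e-11), while -0.22 in clone 2 did not pass (adjusted p = 0.0654). HES5 was higher than in H9 by 0.64 in clone 2 and 0.68 in clone 5, and than in clone 3 by 0.58 and 0.62. None of the 9 embryonic stem cell markers, 3 endoderm markers and 5 trophoblast and amnion markers tested was called. By limma without adjustment these lists had 1, 0 and 0 genes higher and 2, 2 and 0 lower at a p under 0.05. The part of these genes in the members' folds was not tested.

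None of the tested genes next to the members on the chromosome passed the test. Beside the 9 members lie 16 other genes in RefSeq, of which 15 had a probe and 11 were tested, with log2 folds of -1.07 to 0.26 in ZFX over control lines. By limma without adjustment, 1 had a p under 0.05. The neighbours were looked at after the members' values were seen. GDF3, a TGF-beta family ligand, lies next to DPPA3. On the log2 scale GDF3 was at 10.10 in clone 3, 7.60 in H9, 7.91 in clone 2 and 7.64 in clone 5. It was thus highest in the line where the tested DPPA3 probe was not detected. The other DPPA3 probe was detected in neither H9 nor clone 3. VENTX and KNDC1 beside UTF1 had log2 folds of 0.26 and 0.02 (adjusted p = 0.782 and 0.996).

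The genes most like 3 of the members over the 8 arrays were taken by Pearson correlation, over the genes with an SD of at least 0.3 on the log2 scale, and are given as a description. Lines are shared by pairs of arrays, so such correlations follow differences between 4 lines. DPPA2 was most like C1orf94 (r = 0.996), HBA2 (r = 0.991, detected on 5 arrays) and LPIN1 (r = 0.986), out of 1499 genes. C1orf94 had line means of 7.51 in H9, 7.34 in clone 3, 8.47 in clone 2 and 8.05 in clone 5, the order of DPPA2. UTF1 was most like NTM (r = 0.997), TMEM59L (r = 0.994) and TMEFF2 (r = 0.993). TMEM59L was at 6.65 in H9, 5.44 in clone 3, 7.25 in clone 2 and 6.97 in clone 5, again lowest in clone 3. For DPPA4, which hardly varied (SD 0.12 over the arrays), the highest values were 0.72 for H2AC13, 0.72 for NRK and 0.71 for EDA.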

How the data were processed

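Expression was measured on 8 Illumina arrays, 2 for each of 4 lines, with groups and replicate numbers from the titles. The authors' deposited intensity values are linear and not normalized (array medians 60.4 to 67.8), and each comes with a detection p-value, per the file headers. A second table holds the authors' processed values, which rise with log2 intensity at a slope of 0.981 to 1.03 and so are on a log2 scale, with a median of 6.76 on every array. Their background correction and any centring of probes are not given in the sources used here, so they served as an alternative. The submitters' processing notes name BeadStudio, with no version.

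Intensities were corrected by normexp in limma 3.58.1 (R 4.3.3) with an offset of 16 and 759 negative controls, as implied by the detection p-values, then quantile normalized and logged (log2). The 23280 probes kept were detected (p under 0.05) on 2 or more arrays. The brightest probe of each gene and every unnamed probe were tested, 19124 in all, 12590 of them named genes. Of all probes, 28098 have 1 symbol in the platform annotation, 13 have several and 20691 have none, and 28059 were matched by Entrez ID to RefSeq (GRCh38.p14) with no symbol changed. The comparison of ZFX and control lines took line as a random block in limma, and that of pairs of lines used a model of 4 line means. The block used 1 correlation between arrays of a line, 0.353, for all tests. Its intervals and p-values may therefore be too small for genes such as UTF1 and DPPA5, whose control lines differed. Variances were moderated along an intensity trend, and p-values were adjusted by Benjamini-Hochberg over all tests and called at 0.05. All adjusted p-values are from these limma fits. The fits were also run on simulated data in which all genes shared 1 line correlation, as the model assumes. That run cannot show how the p-values hold for genes with larger differences between lines. Where no array of a line detected a gene, the fold is a bound against the dimmest detected probe of each array. Summed marker levels are sums of normalized intensity, on a linear scale, with the offset in each.

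Members and gene lists were chosen with earlier results of these data known. The genes named by rule are the 9 members, ZFX, the called genes of each list (or its 2 largest folds), and the 3 genes most like DPPA2, DPPA4 and UTF1. Outside that rule, CBFA2T2, FGF4, COL1A1, PAX6, TBXT, GSC, MIXL1, FGF8, VENTX and KNDC1 were named with their values known. Some markers detected on no array are named too. No array duplicated another: arrays of a line correlated at 0.994 and arrays of different lines at 0.981 to 0.992. Same-numbered arrays did not deviate together (r = -0.00991 to 0.0628 over 6 pairs of lines), so replicate numbers were not used as pairs. Alternatives covered background correction, scaling, filter, probe choice, variance model, replicate number, single arrays and single lines. Figures were drawn with matplotlib.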

Additional observations from a re-analysis of the deposited data

Results flagged for a closer look

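In a group of 4 arrays, 1 array stood apart from the other three in 2 of the 16 groups of member values tested, where chance flags about 1 in 20. For DPPA4, clone 5 replicate 2 was highest of the ZFX arrays, and its gap to the nearest one took up 0.86 of their range, above Dixon's 95% limit for 4 values. For TFCP2L1, clone 2 replicate 1 was highest of the ZFX arrays, also with a gap of 0.86 of the range. Neither gene was called in ZFX over control lines.

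Lines with the same ZFX status differed in 4 members. Clone 3 over H9 had log2 differences of -1.09 for DPPA5, -1.73 for UTF1 and 0.46 for KLF4, and UTF1 was not detected in clone 3, so its value is fitted and the bound is given above. Clone 5 over clone 2 had a log2 difference of -0.58 for DPPA2.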

How the results depend on the processing

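Every alternative kept the direction of the 8 members in ZFX over control lines, where it could be fitted. DPPA2 was called in 21 of 23 alternatives, UTF1 in 10 of 22, DPPA3 in 7 of 22, DPPA5 in 5 of 22, KLF4 in 1 of 23 (clone 3 as the only control, log2 fold -0.53), and DPPA4, TFCP2L1 and TBX3 in 0. The causes of lost calls were not tested.

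The 3 members and 321 tests called, unnamed probes included, became 1 and 191 with probes detected on all 8 arrays. That filter drops UTF1, DPPA3, DPPA5 and TBX3. The counts also became 1 and 191 with no intensity trend. They became 0 and 12 with arrays averaged first, 1 and 156 with clone 2 alone standing for the ZFX lines and 0 and 49 with clone 5 alone. The 2 counts of 0 members had 4 and 4 members at an unadjusted limma p under 0.05. With arrays averaged first, 1296 of all tests had such a p. With H9 as the only control 1089 tests were called, with clone 3 as the only control 5 members and 2649 tests, and with line ignored 565 tests. Leaving out 1 array gave 1 to 4 members and 177 to 470 tests. Median scaling called 477 tests, 54.5% of them higher against 66.7%. Its shares called higher were 46.4% against 57% in clone 2 over H9 and 41.4% against 54.7% in clone 2 over clone 3. The replicate number as a block left 1 member (DPPA2) and 218 tests, with an adjusted p of 0.0859 for UTF1 and 0.069 for DPPA3. Replicate numbers share only a number here.

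Between pairs of lines, median scaling left 1 member called in clone 2 over H9, 0 in clone 5 over H9 and 0 in clone 5 over clone 2, where no intensity trend also left 0. These counts of 0 had 3, 1 and 2 members at an unadjusted limma p under 0.05. Probes detected on all 8 arrays left 1 in clone 2 over H9, 3 in clone 2 over clone 3, 2 in clone 5 over clone 3 and 1 in clone 3 over H9. Leaving out 1 array gave 2 to 4 members in clone 2 over H9, 0 to 1 in clone 5 over H9 and 0 to 1 in clone 5 over clone 2. The counts of 0 had 2 members in clone 5 over H9 and 1 in clone 5 over clone 2 at an unadjusted limma p under 0.05 (without clone 5 replicate 1, and without clone 2 replicate 2 or clone 5 replicate 2).

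Folds that changed sign were all of uncalled members. In clone 2 over H9, TBX3 came to 0 with no background correction, -0.01 with median scaling and -0.27 to 0.27 without 1 array, DPPA4 to -0.02 with median scaling and -0.01 to 0.15 without 1 array, and KLF4 to -0.24 to 0.02 without 1 array. In clone 5 over H9, KLF4 came to 0.02 with median scaling and -0.17 to 0.14 without 1 array. In clone 2 over clone 3, DPPA4 came to -0.14 with median scaling and -0.14 to 0.18 without 1 array, and TBX3 to -0.31 to 0.23 without 1 array. Without 1 array, DPPA4 ranged from -0.07 to 0.25 in clone 5 over clone 3 and from -0.11 to 0.21 in clone 3 over H9. In clone 5 over clone 2, TBX3 then ranged from -0.43 to 0.11 and KLF4 from -0.06 to 0.25. The chip as a block was not run, because the column names give no chip. Signals near background limit all members but DPPA4.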
